A study of Mus musculus with 4 samples.

Results

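Cd209a, Tmem176a and Tmem176b are 3 of the 27998 mouse genes counted in single bone marrow classical monocytes from young and old mice. They were taken by symbol from the gene list of both deposited count matrices, and were chosen because earlier results of these same data had shown them with the age comparison and with the MHC class II genes H2-Aa and Cd74. The values of each member in old against young mice, and its detection together with H2-Aa and Cd74, are therefore given as a description with no test. Other comparisons between cells of the same mouse, among the 3 genes and with surface antibodies were not part of that choice and were tested. Class II genes were part of it, so results among the 3 genes or with class II genes or protein are not independent of it.

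Classical monocytes (Ly6G- CD11b+ CD115+ Ly6C-high) were sorted from the bone marrow of wild-type C57BL/6 mice, 5 young and 5 old of each sex. Males were compared at ages of 14 weeks (young) and 27 months (old), females at 15 weeks and 26.5 months. No gene was modified and no agent was given, and all mice share the strain and the sort. Each mouse carried its own hashtag (a barcoded antibody), and the 10 mice of one sex were pooled into 1 library for 3′ single-cell RNA sequencing with unique molecular identifiers (UMIs), so sex and library cannot be told apart and the pools were analysed separately. The female pool gave 6641 cells (259 to 1592 per mouse) and 80113391 UMIs. The male pool gave 1227 cells (49 to 206 per mouse) and 6795341 UMIs, and the pools shared 0 barcodes. Old mice had deeper cells: the median UMIs per cell were 9700 to 13033 in old and 7978 to 8990 in young females, and 4490 to 8844 in old and 3806 to 4456 in young males. The summed level of Ly6c2, Csf1r, Itgam and Ccr2, which mark the sorted cell type, lay between 3379 and 4169 CPM (a gene's UMIs scaled to the total UMIs of the mouse) in all 20 mice. T and NK cell markers summed to at most 7.54 CPM in every mouse. Basophil markers reached 568.5 CPM in males and neutrophil markers 4405 CPM.

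Cd209a encodes a C-type lectin of the DC-SIGN family, a surface receptor for carbohydrates that is known from monocyte-derived dendritic cells. Tmem176a and Tmem176b encode related proteins with several membrane spans, distantly related to the MS4A family, that lie next to each other in the genome, act as cation channels in intracellular membranes and are abundant in dendritic cells and macrophages. Ly6C-high monocytes of the bone marrow include neutrophil-like cells (NeuMo), which carry azurophil granule transcripts such as Mpo and Elane, and cells with dendritic cell potential (DCMo), which carry MHC class II transcripts. H2-Aa encodes a chain of an MHC class II molecule, and Cd74 encodes the invariant chain, which binds newly made class II molecules and guides their transport.

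In the mouse build GRCm38, Tmem176b (ENSMUSG00000029810; chr6:48833818-48841496, minus strand) and Tmem176a (ENSMUSG00000023367; chr6:48840919-48847071, plus strand) are read in opposite directions, and their 5′ ends overlap by 578 bases. Cd209a (ENSMUSG00000031494; chr8:3743397-3748984, minus strand) lies in a row of related Cd209 genes, of which Cd209d (ENSMUSG00000031495; chr8:3871824-3878555) is the other one with enough counts to be tested here. Related Cd209 genes can share reads, so the split of counts between Cd209a and Cd209d is uncertain. The RefSeq promoter windows (GRCm38.p6; 250 bases before to 50 after a gene start) are printed because they show how closely the starts of the Tmem176 genes lie together. Capitals mark the motif GGAANNGAA and the motif TATAAA in Cd209a and the motif GAGGAA in the Tmem176 genes, on either strand. The windows are chr8:3748935-3749234 (minus strand), chr6:48841406-48841705 (plus strand) and chr6:48841325-48841624 (minus strand).
Cd209a: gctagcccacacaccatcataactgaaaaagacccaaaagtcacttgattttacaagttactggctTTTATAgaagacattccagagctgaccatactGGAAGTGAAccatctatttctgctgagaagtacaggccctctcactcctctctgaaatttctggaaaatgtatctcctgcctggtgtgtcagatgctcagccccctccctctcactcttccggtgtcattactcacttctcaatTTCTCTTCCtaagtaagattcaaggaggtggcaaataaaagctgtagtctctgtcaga
Tmem176a: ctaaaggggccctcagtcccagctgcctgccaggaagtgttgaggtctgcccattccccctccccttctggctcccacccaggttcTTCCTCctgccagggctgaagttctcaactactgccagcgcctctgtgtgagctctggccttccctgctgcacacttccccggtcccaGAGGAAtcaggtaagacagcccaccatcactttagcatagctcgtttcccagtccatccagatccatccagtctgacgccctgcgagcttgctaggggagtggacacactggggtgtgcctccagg
Tmem176b: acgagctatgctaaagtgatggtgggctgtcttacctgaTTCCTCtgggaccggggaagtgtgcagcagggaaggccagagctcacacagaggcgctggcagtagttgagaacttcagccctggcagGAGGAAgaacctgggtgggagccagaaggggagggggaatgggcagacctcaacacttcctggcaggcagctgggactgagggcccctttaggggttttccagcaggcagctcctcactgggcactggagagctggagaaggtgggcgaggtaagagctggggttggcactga
All 3 members had a window in the table, which holds 32851 windows of 27025 genes. Tmem176a and Tmem176b have other listed starts too, and the windows shown are the pair that overlaps most. They share 219 bases on opposite strands, and both copies of GAGGAA (at -164 and -76 from the Tmem176a start, and at -211 and -123 from the Tmem176b start) lie in the shared stretch. GAGGAA, the letters bound by PU.1, was present in 28.3% of all windows, so its presence is not particular. The Cd209a window held GGAANNGAA at -152 and -8, which 8.24% of windows held, and TATAAA at -184, which 13.6% held, and these 2 motifs do not overlap there. The other motifs searched on both strands (the CCAAT box, the E-box CACGTG, the interferon-response core GAAANNGAA, the AP-1 motif TGANTCA and the GC-box GGGCGG) did not occur in these 3 windows.

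Cd209a was detected in few cells and at widely differing counts. In the female pool 504 of 6641 cells (7.59%) held at least 1 Cd209a UMI, with 2213 UMIs in all, 40.5% of the positive cells at 1 UMI and a highest count of 51. In the male pool 101 of 1227 cells (8.23%) were positive, with 462 UMIs. As a measure of stray RNA, 8 of 557 female NeuMo-like cells (1.44%) were positive at a median of 24173 UMIs per cell, against a median of 9587 in the pool, and 0 of the 36 cells led by T cell genes were positive, which allows a share of up to 8.33%. Tmem176a was detected in 41.8% of female and 24.9% of male cells, and Tmem176b in 55.3% and 36.1%. In the 36 cells led by T cell genes, at a median of 11495 UMIs, 27.8% held Tmem176a and 44.4% held Tmem176b. Of the 15 male cells led by basophil genes 0 held any of the 3 genes, which allows up to 20%. These male cells were shallow, at a median of 1599 UMIs against 4540 in the male pool.

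Fewer monocytes of old females than of young females carried Cd209a. The positive share was 2.54, 7.82, 5.00, 5.09 and 6.98% in old females 1 to 5, and 11.2, 10.6, 10.8, 8.42 and 9.10% in young females 1 to 5. The mean was 5.49% ± 2.04 in old and 10.0% ± 1.21 in young females (SD, n = 5 each), and the groups did not overlap. Of the 10071 genes tested in females, 0.258% had a share of positive cells that was lower in every old than in every young mouse, against 14.9% that were higher, and since the age comparison chose the gene nothing is read from this. In cells thinned to 2000 UMIs the shares were 1.85% ± 0.51 and 5.23% ± 0.97, without overlap. How many of all genes separate the ages after thinning was not counted, so nothing is read from this either. Without old female 1, which stood apart in several measures, the old mean was 6.22% ± 1.40.

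The summed level of Cd209a followed the share. It was 5.48, 38.3, 11.4, 13.6 and 30.4 CPM in old females and 47.9, 44.5, 36.8, 32.6 and 33.7 CPM in young females. Old female 2 lay within the young range and the other 4 old females below it, and the log2 fold change of old against young was -1.05 (SE 0.31) in the edgeR fit. The number of UMIs per positive cell overlapped between the ages, at 4.44 ± 1.98 in old and 4.37 ± 0.44 in young females (SD, n = 5 each).

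Males showed the same order for Cd209a with more spread. The positive share was 9.22, 4.31, 2.02, 6.12 and 8.93% in old males and 7.34, 7.46, 10.6, 11.8 and 11.5% in young males, a mean of 6.12% ± 3.07 against 9.75% ± 2.18 (SD, n = 5 each). Old males 2, 3 and 4 were below every young male, and the groups overlapped. The summed level was 90.2, 15.2, 9.78, 13.1 and 87.7 CPM in old and 57.9, 65.5, 78.6, 185 and 72.4 CPM in young males, a log2 fold change of -1.03 (SE 0.47). Old males 1 and 5 lay above 4 of the 5 young males and below young male 4, and the other 3 old males lay below every young male.

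Tmem176a differed from Cd209a in direction. Its positive share was 30.1, 22.4, 37.4, 38.8 and 48.2% in old males and 22.0, 17.2, 18.4, 15.7 and 22.1% in young males. Every old male was above every young male (35.4% ± 9.70 against 19.1% ± 2.88; SD, n = 5 each), where 6.07% of 5653 genes tested were higher and 0.0531% lower in the same way. In cells thinned to 2000 UMIs the groups overlapped (19.6% ± 8.91 against 11.2% ± 3.51). In females the share was 35.9, 42.9, 46.0, 42.3 and 56.6% in old and 40.3, 38.2, 42.1, 39.4 and 38.5% in young mice, and the groups overlapped. The log2 fold change of the summed level was 0.78 (SE 0.25) in males and 0.15 (SE 0.14) in females.

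Tmem176b overlapped between the ages in both pools. Old females had 47.1, 49.9, 62.2, 55.3 and 69.6% positive cells and young females 52.6, 50.8, 59.5, 54.1 and 52.3%. Old males had 46.1, 23.3, 46.5, 40.8 and 58.9% and young males 35.6, 28.4, 39.7, 25.2 and 27.0%. Old mice were spread over a wider range than young ones. The male groups overlapped with any 1 mouse left out except old male 2, the lowest old male. Without it they did not overlap (48.1% ± 7.68 against 31.2% ± 6.19), and nothing is read from this. The female difference of 2.93 percentage points ran from -0.26 (without old female 5) to 5.36 (without old female 1) with 1 mouse left out. The log2 fold change of the summed level was 0.45 (SE 0.30) in males and -0.03 (SE 0.13) in females.

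**Figure D1:**
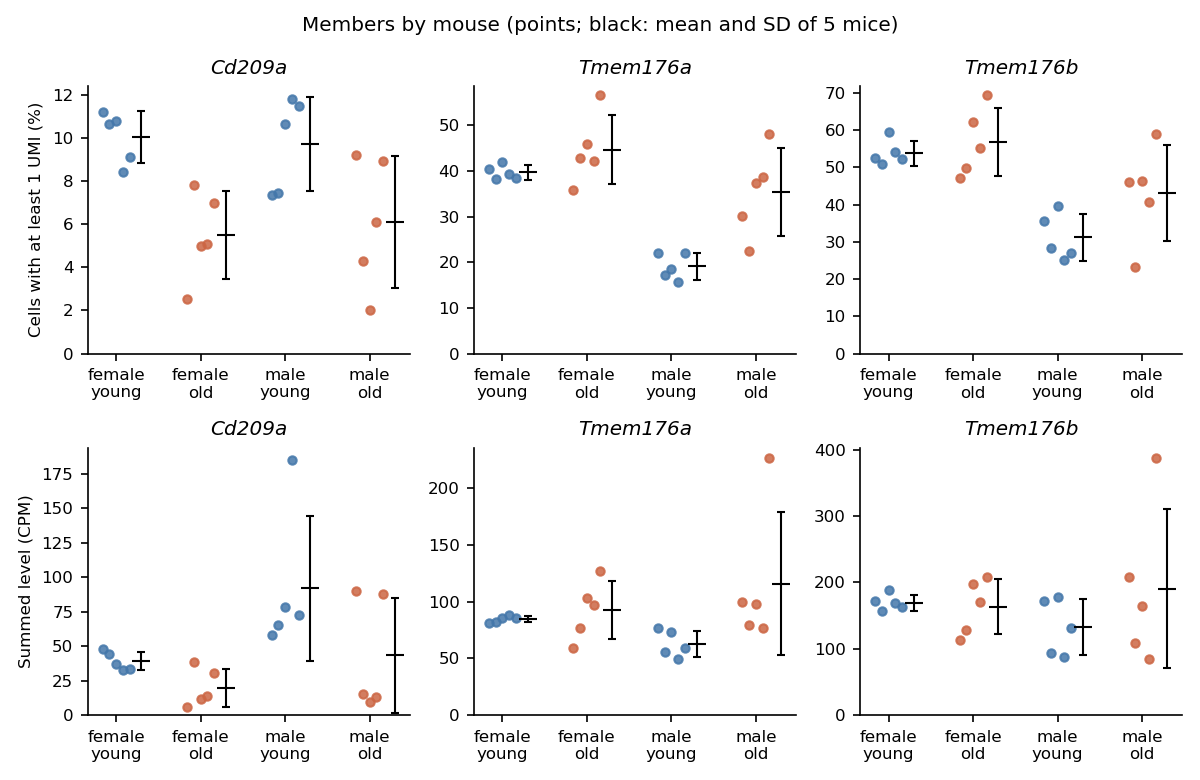
Share of cells with at least 1 UMI (percent, upper row) and summed level (CPM, lower row) of Cd209a, Tmem176a and Tmem176b in young (blue) and old (orange) mice of each pool, where each point is 1 mouse and black bars give the mean and SD of 5 mice. For Cd209a the 5 old females (2.54 to 7.82%) lie below the 5 young females (8.42 to 11.2%), and for Tmem176a the 5 old males (22.4 to 48.2%) lie above the 5 young males (15.7 to 22.1%).

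The age fit of edgeR's quasi-likelihood test over all genes called 2.03% of 10071 genes higher and 1.4% lower in old females, and 0.0% either way in old males (0 of 5653 genes; 616 at an unadjusted p under 0.05, and 23 called by DESeq2). The genes listed for comparison that rose in old females include H2-Ab1, H2-Eb1, H2-DMb1 and Ciita, and those that fell include Cd209d, a relative of Cd209a. H2-Ab1, a class II chain, rose 2.32 on the log2 scale (SE 0.48, adjusted p = 0.0137; 344 ± 346 against 68.1 ± 24.9 CPM; 1.47 without old female 1, adjusted p = 0.00477), and H2-Eb1 rose 2.62 (SE 0.56, adjusted p = 0.0161). Ciita, the transactivator of class II genes, rose 2.22 (SE 0.42, adjusted p = 0.00764). Cd209d fell by 1.69 on the log2 scale (SE 0.41, adjusted p = 0.0335; 0.976 ± 0.587 against 3.16 ± 1.84 CPM), and the groups overlapped, as they did for H2-Eb1. Since the split of counts between Cd209d and Cd209a is uncertain, its fall cannot be told apart from that of Cd209a. The age comparison of Cd209a was part of the choice of genes, so the Cd209d call is not a separate result. Of the 31 measured dendritic cell related genes 5 rose and 0 fell in old females, with a median log2 fold change of 0.11 against -0.00 over all genes, and of 18 measured in males 0 were called. Calls in old females were not confined to that list. In them 3 of 9 Ms4a genes, 3 of 10 classical monocyte genes and 1 of 9 transition and non-classical genes rose, and 0 fell. Of 13 C-type lectins 1 rose and 2 fell, and of 9 granule genes 0 were called.

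On average over mice, cells with H2-Aa or Cd74 were more often positive for Cd209a than cells without, in both age groups. For H2-Aa old female 1 hardly differed (2.56 against 2.5%). Old male 3 went the other way (0 against 2.44%), with 2 Cd209a-positive cells. UMIs per cell were not matched in these shares. In young females 18.03% ± 3.33 of H2-Aa-positive and 8.33% ± 1.03 of H2-Aa-negative cells held Cd209a, and in old females 9.88% ± 5.02 and 3.77% ± 0.970 did (SD, n = 5 each). The share in Cd74-positive cells was 12.4% ± 1.40 in young and 6.54% ± 2.46 in old females, without overlap. How many of all genes separate the ages among Cd74-positive cells was not counted. In males 47.0% ± 19.96 of H2-Aa-positive cells of young and 17.6% ± 14.3 of old mice held Cd209a, and the groups overlapped. These male shares rest on 10 to 13 H2-Aa-positive cells per young and 4 to 44 per old mouse. Read from the other side, Cd209a-positive cells held H2-Aa in 56.8% ± 15.8 of old and 31.7% ± 2.69 of young females, and the Cd209a-negative cells did in 36.4% ± 24.3 and 16.2% ± 1.29. Tmem176a was found in 51.5% ± 11.6 of H2-Aa-positive cells of old and 51.2% ± 5.19 of young females, and Tmem176b in 63.7% ± 13.1 and 67.9% ± 5.66 (SD, n = 5 each). Among the H2-Aa-positive cells of females the ages overlapped for all 3 members, for Cd209a by a small margin (highest old mouse 14.7%, lowest young mouse 14.6%).

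Clusters were computed without the 3 members, and the cluster with all 5 DCMo markers (H2-Ab1, H2-Eb1, H2-Aa, Cd74 and H2-DMb1) among its 10 leading genes is called DCMo-like. Within it the ages did not overlap for Cd209a in females, while they overlapped in males. In old females 1 to 5, 2.41, 22.2, 8.11, 11.9 and 14.3% of the DCMo-like cells were positive, against 63.2, 52.4, 50, 30.7 and 48.0% in young females 1 to 5. Old female 1 had 4 positive among 166 DCMo-like cells, and the groups did not overlap (11.8% ± 7.36 against 48.8% ± 11.7; SD, n = 5 each). The level was 52.1 ± 34.6 against 391 ± 126 CPM. The share is read against a cluster that held 7.28 to 42.2% of the cells of an old and 3.28 to 4.71% of those of a young female, and its positive cells numbered 4, 6, 6, 12 and 6 in old females 1 to 5 and 12, 11, 5, 23 and 12 in young females 1 to 5. The part of the cluster's size in the difference in share was not tested. How many of all genes separate the ages in this way was counted over all cells only, not inside or outside this cluster. Nothing is therefore read from the lack of overlap in either.

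In males the DCMo-like cells of old mice held Cd209a in 39.1, 0, 0 and 15.8% (old males 1, 2, 3 and 5, with 0 of 35 and 0 of 12 cells in old males 2 and 3), and old male 4 had no such cell. Young males had 41.2, 42.9, 58.3, 75.0 and 33.3%, of 7 to 17 DCMo-like cells per mouse. Old males 2, 3 and 5 lay below every young male, and old male 1 lay within the young range. A count of 0 allows a share of up to 8.57% of 35 cells and 25% of 12 cells.

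Tmem176a and Tmem176b overlapped between the ages in these cells. In females 64.6% ± 20.8 of old and 73.3% ± 10.1 of young DCMo-like cells held Tmem176a, and 79.5% ± 19.1 and 93.7% ± 6.35 held Tmem176b (SD, n = 5 each). Outside the cluster 4.89% ± 1.60 of cells in old and 8.50% ± 0.952 in young females held Cd209a, without overlap, and 5.09% ± 1.60 and 6.55% ± 2.25 did in males, with overlap. The cluster is defined by class II genes, of which H2-Ab1, H2-Eb1 and H2-DMb1 rose in old females, and the DCMo markers summed to 14834 to 24506 CPM in its cells in old and 8977 to 23671 CPM in young females. Conventional dendritic cell markers (Xcr1, Clec9a, Zbtb46, Flt3 and Ccr7) summed to 6.08 to 27.0 CPM in the DCMo-like cells of old females and 32.7 to 132 CPM in those of young females. The part of either marker list in the Cd209a difference was not tested.

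**Figure D2:**
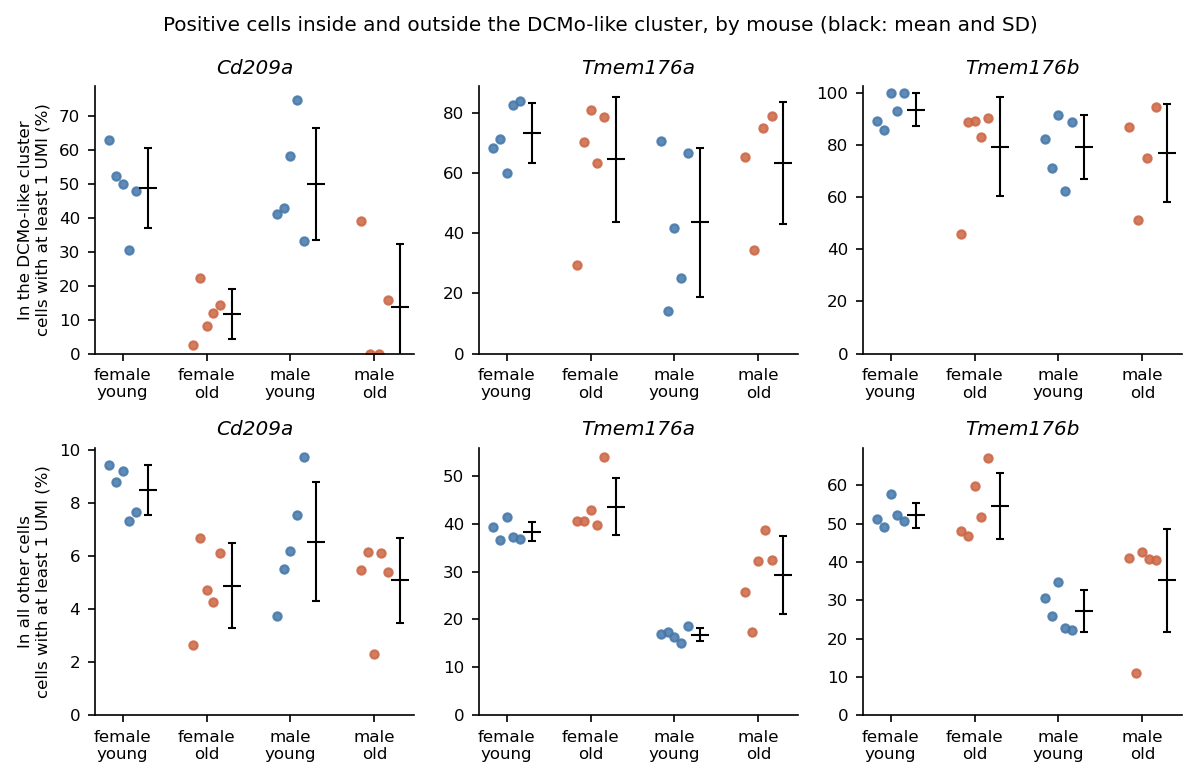
Percent of cells in which each gene was detected, in the DCMo-like cluster (upper row) and in all other cells (lower row) of young (blue) and old (orange) mice, where each point is 1 mouse and black bars give the mean and SD. In the cluster the old females lie between 2.41 and 22.2% for Cd209a and the young females between 30.7 and 63.2%, while the ages overlap for Tmem176a and Tmem176b.

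Each member had its highest mean in the DCMo-like cluster, and the cluster with the next highest mean is named for each. In the DCMo-like cluster Cd209a stood at 222 ± 199 CPM in females (10 mice) and 646 ± 793 CPM in males (9 mice), Tmem176a at 351 ± 139 and 316 ± 151 CPM, and Tmem176b at 692 ± 235 and 778 ± 284 CPM. Since class II genes are in the rule, the comparison of this cluster with the rest was not tested. The next highest mean of Cd209a was in cells with G2/M genes, at 51.1 ± 32.7 CPM in females and 103 ± 85.7 CPM in males. For Tmem176b it was in the cluster led by Apoe, at 343 ± 77.4 and 242 ± 128 CPM, and for Tmem176a in the interferon-stimulated-like cluster of females, at 163 ± 112 CPM. NeuMo-like cells were lowest for Cd209a among the monocyte clusters with at least 3 mice, at 1.12 ± 2.09 CPM in females and 3.78 ± 8.33 CPM in males. Their levels of Tmem176a and Tmem176b in females were 64.3 ± 17.7 and 99.2 ± 24.9 CPM. The female cells led by T cell genes had 55.9 ± 15.1 and 132 ± 17.3 CPM of these 2 genes (3 mice). The part of stray RNA in the NeuMo-like values was not tested. Of 24 tests between neighbours in the female order of levels none passed (exact sign-flip permutation tests over 3 to 10 mice, two-sided, smallest adjusted p = 0.516, 1 at an unadjusted p of 0.0469), so neighbouring clusters were not told apart.

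**Figure D3:**
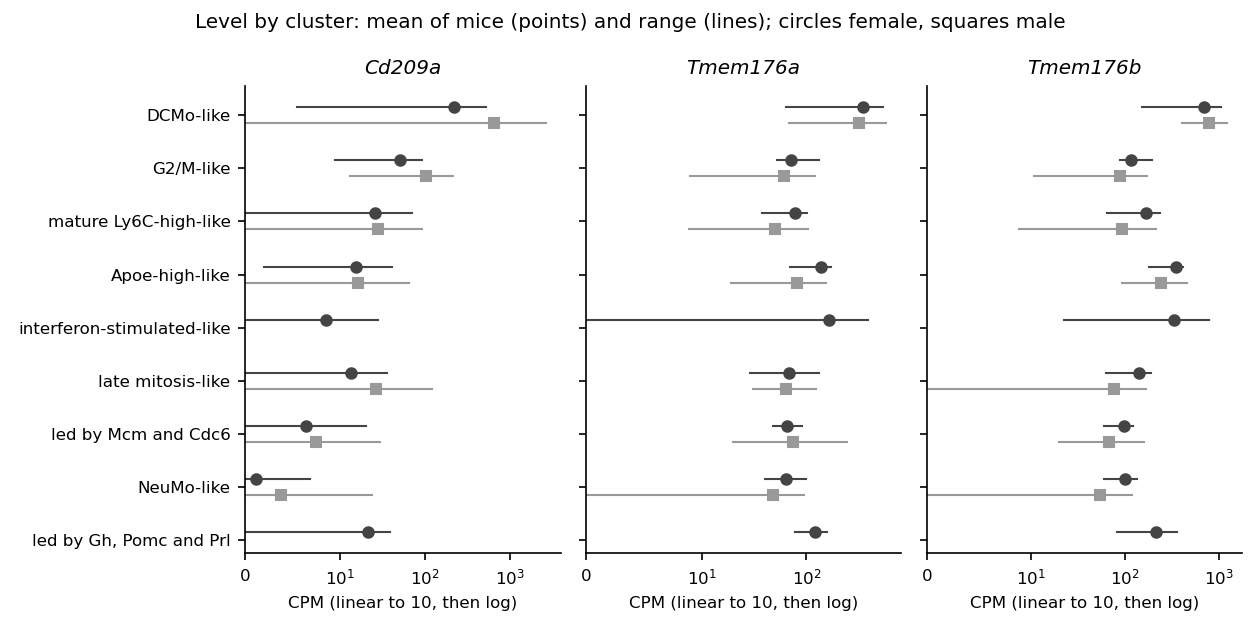
Level of the 3 genes (CPM, symmetric log axis) in each cluster with at least 3 mice of the female and male pools, except that led by T, NK or basophil genes, which is not drawn; points are means over mice (circles female, squares male) and lines run from the lowest to the highest mouse. Among the clusters drawn Cd209a is highest in the DCMo-like cluster (222 CPM in females) and lowest in the NeuMo-like cluster (1.12 CPM), while the lowest mean of Tmem176a is 47.5 CPM and that of Tmem176b 53.8 CPM, both in male NeuMo-like cells.

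The 3 genes were found together in the same cells. Each was chosen with its detection beside H2-Aa and Cd74 in view, so the tests among them are not independent of that choice. With cells compared within a mouse and within quintiles of UMIs per cell, the log2 odds ratio of Tmem176a with Tmem176b was 2.99 ± 0.20 in females and 2.91 ± 1.60 in males (SD over 10 mice each), above 0 in 10 of 10 mice of each pool (exact sign-flip permutation test, two-sided, adjusted p = 0.00293 over 6 tests). Tmem176b was detected in 81.7% ± 3.15 of Tmem176a-positive and 36.3% ± 6.05 of Tmem176a-negative female cells, and in 67.3% ± 12.6 and 25.4% ± 7.93 of male cells. The overlap of the 2 genes lies at their 5′ ends, while the libraries were made for 3′ sequencing. Where the counting does not use strand, reads in that overlap could be assigned to either gene, and the part of such reads was not tested.

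Cd209a went with Tmem176b at a log2 odds ratio of 1.60 ± 0.43 in females (10 of 10 mice, exact permutation adjusted p = 0.00293) and 1.65 ± 1.24 in males (above 0 in 7 of 9 mice, exact permutation adjusted p = 0.0156). In females 76.7% ± 8.17 of Cd209a-positive cells held Tmem176b, against 53.5% ± 6.79 of the negative cells. The ratio with Tmem176a was 1.18 ± 0.55 in females (10 of 10 mice, exact permutation adjusted p = 0.00293) and 1.13 ± 0.70 in males (9 of 9 mice, exact permutation adjusted p = 0.00469). The male association of Cd209a with Tmem176a lost its call among singlet barcodes only (0.60, exact permutation adjusted p = 0.188), after thinning (1.02, 0.0625) and with 2 UMIs required (1.05, 0.188, with 5 mice, for which the smallest possible two-sided p is 0.0625).

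Cd209a-positive monocytes differed from Cd209a-negative monocytes of the same mouse in many genes. edgeR's quasi-likelihood test with the mouse as a block called 8.57% of 9634 genes higher and 8.45% lower in the positive cells of females, and 2.87% and 3.93% of 3940 genes in males (8 mice with at least 5 positive cells). Positive cells were slightly deeper, with a median ratio of 1.10 in females and 1.11 in males. Of the 33 measured dendritic cell related genes 26 were higher and 1 lower in females (median log2 fold change 0.80), and 10 of 18 were higher and 0 lower in males. In every fit this list includes class II genes such as H2-Ab1 and H2-Eb1, which are related to H2-Aa, part of the choice of members. The list was also set with earlier results of these data known. Of the granule genes of neutrophil-like monocytes, 0 of 10 were higher and 10 of 10 lower in females, and 0 and 9 of 9 in males. After thinning to 2000 UMIs these counts were 14 and 0 dendritic cell related genes and 0 and 9 granule genes in females. Over all genes 297 were called after thinning, against 1640 before, and no share of the genes tested is given for thinned cells.

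The genes higher in Cd209a-positive cells include several known from dendritic cells and their progenitors. Flt3, the receptor for the growth factor of dendritic cell progenitors, was at 37.2 ± 13.1 against 5.01 ± 1.76 CPM in females (log2 fold change 2.89, SE 0.16, edgeR adjusted p = 3.92e-17, higher in 10 of 10 mice) and at 68.0 ± 46.4 against 4.22 ± 2.88 CPM in males (3.83, SE 0.54, edgeR adjusted p = 4.91e-06, 7 of 8 mice). Cd7, an immunoglobulin family receptor of lymphoid and some progenitor cells, was at 75.4 ± 77.4 against 3.001 ± 1.83 CPM in females (4.43, SE 0.25, edgeR adjusted p = 3.54e-17, 9 of 10 mice) and at 155 ± 47.0 against 5.16 ± 7.12 CPM in males (4.96, SE 0.49, 8 of 8 mice). Clec9a, a lectin receptor for dead cells on dendritic cells, rose 3.98 in females (SE 0.28, edgeR adjusted p = 2.12e-14, 10 of 10 mice) from 0.929 CPM. The class II chain H2-Ab1 was higher by 1.80 (SE 0.15) in females and 2.30 (SE 0.38) in males on the log2 scale, both past the threshold, and it accompanies H2-Aa, which chose the genes. Clec10a, a galactose-type lectin of monocyte-derived dendritic cells, was higher by 1.35 (SE 0.10) in females and 1.57 (SE 0.30) in males, and the mannose receptor Mrc1 by 2.47 (SE 0.22) and 3.75 (SE 0.95). The list of C-type lectins that holds Clec9a, Clec10a and Mrc1 went both ways. Of 13 measured in females 4 were higher and 4 lower, and of 8 in males 2 were higher and 2 lower.

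Among the called genes with the largest fold and the same sign in every mouse were, in females, Fmnl2, a regulator of actin (3.31, SE 0.42), Slamf7, a self-ligand receptor (2.72, SE 0.21), and Tspan33, a tetraspanin (2.40, SE 0.26), all past the threshold of the edgeR fit on the log2 scale. In males Slamf7 (2.93, SE 0.56) and Klrk1, an activating lectin receptor (2.34, SE 0.52), were higher in 8 of 8 mice. Cd209d was higher by 5.67 (SE 0.37) in females, at 20.2 ± 16.8 against 0.309 ± 0.361 CPM, and by 6.10 (SE 0.83) in males, within the limit that related genes can share reads. Cx3cr1, the fractalkine receptor, was higher by 0.84 (SE 0.07) in females and 0.72 (SE 0.18) in males. Zbtb46, a transcription factor of conventional dendritic cells, was near the limit of detection at 3.03 ± 2.97 against 0.118 ± 0.164 CPM in females (4.05, SE 0.72, 8 of 10 mice).

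Granule genes were lower in Cd209a-positive cells. Elane, neutrophil elastase, was at 452 ± 402 against 2172 ± 396 CPM in females (-2.50, SE 0.19) and at 101 ± 53.2 against 1128 ± 330 CPM in males (-3.39, SE 0.19). Mpo, myeloperoxidase, had log2 fold changes of -2.55 (SE 0.18) and -2.72 (SE 0.22), and the calprotectin subunit S100a9 of -3.97 (SE 0.20) and -4.84 (SE 0.36). Chil3, a chitinase-like protein of classical monocytes, was at 364 ± 350 against 1252 ± 609 CPM in females and at 23.4 ± 24.1 against 1203 ± 666 CPM in males (-2.0, SE 0.10, and -5.65, SE 0.23). These 4 genes were lower in every mouse of both fits. Ly6c2, which encodes the sorted Ly6C antigen, was lower by less, at -0.27 (SE 0.03) in females and -0.78 (SE 0.10) in males. Lcn2, lipocalin 2, had 0 counts in the positive cells of all 8 males, so no fold is given, against 73.5 ± 85.2 CPM in the negative cells.

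The Tmem176 genes were themselves higher in Cd209a-positive cells. Tmem176b was at 310 ± 93.4 against 154 ± 25.4 CPM in females (1.04, SE 0.06, 10 of 10 mice) and at 348 ± 202 against 153 ± 93.7 CPM in males (1.21, SE 0.19, 7 of 8 mice), and Tmem176a was higher by 0.97 (SE 0.07) in females. The male value of Tmem176a, 0.88 (SE 0.24, edgeR adjusted p = 0.02), was 0.27 after thinning and lost its call without young male 1 (adjusted p = 0.115) or young male 2 (0.0856).

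Markers of other cell types moved with the Cd209a classes in part. Conventional dendritic cell markers (4 of 5 detected, Ccr7 at 0) summed to 16.5 to 78.5 CPM in the Cd209a-positive cells of the 10 females and 3.38 to 10.1 CPM in the negative cells. In males (3 of 5 detected in the positive cells, with Xcr1 and Ccr7 at 0) the sums were 0 to 195 CPM and 1.83 to 8.91 CPM. Neutrophil markers (4 of 4 detected) summed to 23.1 to 82.3 CPM in positive and 71.5 to 1369 CPM in negative female cells. The markers of the sorted cells summed to 3177 to 3916 CPM in positive and 3514 to 4150 CPM in negative female cells. The part of conventional dendritic cells and neutrophils in these results was not tested.

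Tmem176b-positive cells shared part of this pattern. The edgeR fit called 7.17% of 9929 genes higher and 6.8% lower in females, and 0.532% and 0.571% of 5077 genes in males. Tmem176a was at 138 ± 18.1 against 19.95 ± 4.09 CPM in females (2.85, SE 0.06, edgeR adjusted p = 8.51e-23) and higher by 2.44 (SE 0.19) in males, in 10 of 10 mice of each. Cd209a was at 42.2 ± 21.3 against 12.6 ± 10.1 CPM in females (1.93, SE 0.12, 10 of 10 mice) and at 118 ± 98.7 against 36.5 ± 41.7 CPM in males (1.72, SE 0.29, edgeR adjusted p = 0.000364, 7 of 10 mice). Of the dendritic cell related genes 20 of 30 were higher and 0 lower in females, and 9 of 20 and 0 in males. H2-Ab1 was higher by 2.11 (SE 0.25) in females and 2.82 (SE 0.27) in males, and Slamf7 by 2.16 (SE 0.23) and 2.71 (SE 0.46). Apoe, a lipid carrier of macrophages and maturing monocytes, was higher by 0.86 (SE 0.05) and 1.54 (SE 0.19).

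Chil3 was lower in Tmem176b-positive cells by log2 fold changes of -0.85 (SE 0.03) in females and -1.21 (SE 0.15) in males, and Pglyrp1, a peptidoglycan recognition protein of granules, by -0.95 (SE 0.08) and -2.001 (SE 0.21), in every mouse. The granule genes split in females, with 5 of 10 higher and 4 lower, and 0 and 5 of 10 in males. Those that were higher turned with thinning: Mpo was 0.78 (SE 0.07) in the full data and -0.57 in cells thinned to 2000 UMIs, Ctsg 0.57 and -0.66, Ms4a3 0.44 and -0.62, and Elane 0.26 and -0.80. After thinning 0 granule genes were called higher and 9 lower in females, where 808 genes were called in all, against 1387 before.

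Tmem176a-positive cells were deeper than negative cells, with a median depth ratio of 1.25 in females (above 1 in 10 of 10 mice) and 1.08 in males (8 of 10 mice). The edgeR fit called 11.2% of 9964 genes higher and 10.2% lower in females, and 0.2% and 0.555% of 4505 genes in males. Tmem176b was at 280 ± 39.5 against 66.9 ± 13.8 CPM in females (2.09, SE 0.05, edgeR adjusted p = 4.96e-20) and higher by 1.81 (SE 0.13) in males, in 10 of 10 mice of each. H2-Ab1 was higher by 1.73 (SE 0.22) in females and 2.24 (SE 0.20) in males, and H2-Eb1 by 1.89 (SE 0.27) and 2.27 (SE 0.21). Cd209a was higher by 1.28 in females (SE 0.16, edgeR adjusted p = 4.13e-06, 9 of 10 mice), and the male value of 0.87 (SE 0.29) did not pass (edgeR adjusted p = 0.296). Of the dendritic cell related genes 17 of 31 were higher and 2 lower in females, and 4 of 18 and 0 in males. Mpo, Elane and Ms4a3 were higher in the full female data (0.85, 0.42 and 0.54) and lower after thinning (-0.14, -0.33 and -0.54).

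**Figure D4:**
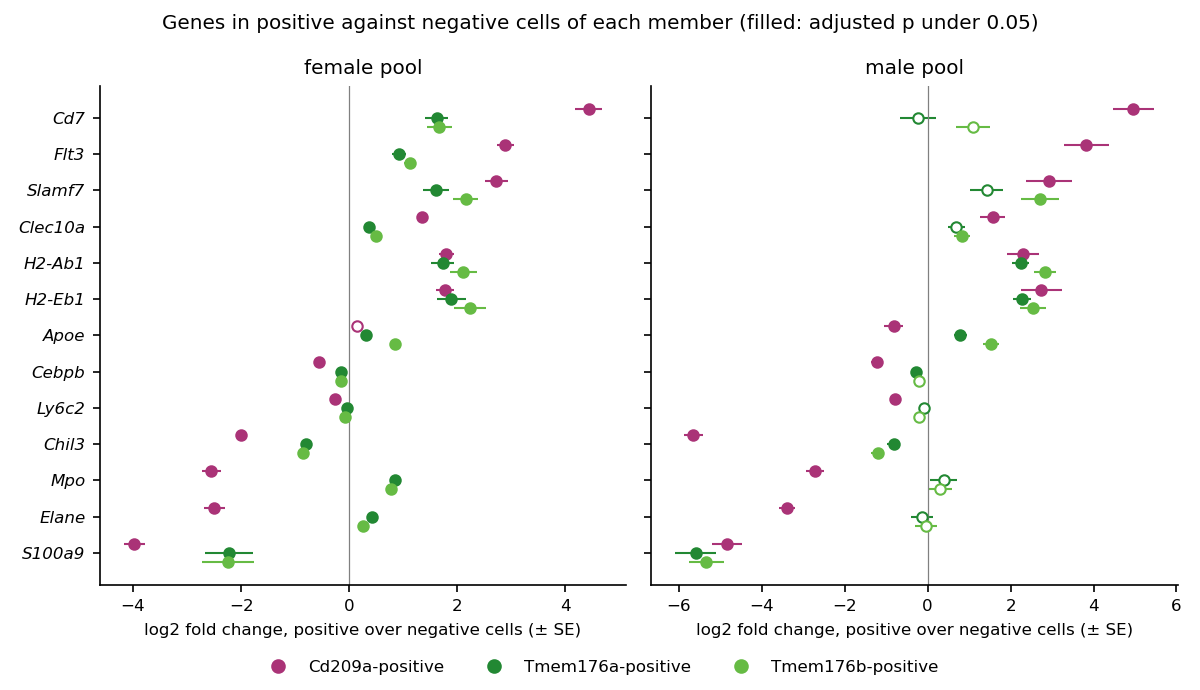
Log2 fold change of selected genes in cells positive for each member against negative cells of the same mice, with 1 SE, in the female and male pools (edgeR fits with the mouse as a block, filled points past the threshold). Elane and Mpo lie below 0 for Cd209a in both pools and above 0 for Tmem176a and Tmem176b in females, and H2-Ab1 lies above 0 in all 6 fits. In female cells thinned to 2000 UMIs (not drawn) Elane and Mpo were below 0 for both Tmem176 genes.

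A direct comparison of Cd209a-positive cells with Cd209a-negative cells that held Tmem176b showed where the members part. edgeR called 8.59% of 9288 genes higher and 9.41% lower in females, and 2.89% and 2.67% of 2285 genes in males (8 mice). Flt3 was higher in the Cd209a-positive cells by 2.60 (SE 0.17) in females and 3.04 (SE 0.56) in males, and Cd7 by 4.00 (SE 0.25) and 5.03 (SE 0.55). Kmo, an enzyme of tryptophan breakdown, was higher by 2.23 (SE 0.16) in females. Elane was lower, at 452 ± 402 against 2397 ± 441 CPM in females (-2.66, SE 0.19) and by -3.47 (SE 0.23) in males, and Chil3 by -1.61 (SE 0.10) and -4.79 (SE 0.31). All 9 measured granule genes were lower in females and all 6 in males.

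Pla2g7, a lipase of macrophages, was lower in the Cd209a-positive cells by -1.25 (SE 0.16) in females and -4.34 (SE 0.72) in males. Apoe was at 404 ± 441 against 1249 ± 670 CPM in males (-1.70, SE 0.31, edgeR adjusted p = 0.00155, lower in 8 of 8 mice), and the female value of -0.19 (SE 0.09) did not pass (edgeR adjusted p = 0.144). H2-Ab1 was higher in females by 1.24 (SE 0.13), and the male value of 1.05 (SE 0.49) did not pass (edgeR adjusted p = 0.258). The level of Tmem176a hardly separated the classes: 158 ± 54.9 against 131 ± 16.8 CPM in females (0.29, SE 0.08, edgeR adjusted p = 0.00801, 6 of 10 mice), turning to -0.21 after thinning and losing its call without young female 4 (adjusted p = 0.0641) or old female 5 (0.0513), and -0.16 (SE 0.28) in males. The Cd209a-negative cells here were picked for Tmem176b, which was found together with Tmem176a, so their Tmem176a level partly follows from that choice. Nothing is read from the small difference.

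Surface antibodies were counted in the female pool, for Ly6C, CD11b and CD115, which the sort used, and for MHC-II, CD11c and Flt3. Flt3 and CD11c had a median of 2 counts per cell, with 24.8% and 20.9% of cells at 0. CD115 had a median of 4, with 8.57% at 0. Within a mouse the mean log2(count + 1) of positive cells was compared with that of negative cells over 10 mice by exact sign-flip permutation tests, two-sided and adjusted over 18 tests, whose smallest possible unadjusted p was 0.00195. Cd209a-positive cells carried less Ly6C, at 386 ± 59.9 against 520 ± 49.6 counts (difference -0.56 ± 0.58, SD, n = 10; exact permutation adjusted p = 0.00703, lower in 10 of 10 mice). They also carried less CD11b, at 36.9 ± 6.49 against 47.7 ± 4.06 counts (-0.43 ± 0.42; exact permutation adjusted p = 0.00703, 10 of 10 mice). Old female 1 lay far below the others for both, and without it the differences were -0.38 ± 0.09 and -0.31 ± 0.13 (exact permutation adjusted p = 0.0117 each). For MHC-II protein the difference was -0.01 ± 0.47 and ran from -1.23 to 0.50 over mice (exact permutation adjusted p = 0.988), which does not show that the classes were alike. Without old female 1 it was 0.13 ± 0.20 (exact permutation adjusted p = 0.117, 9 mice). The Flt3 antibody differed by -0.07 to 0.20 over mice and CD11c by -0.48 to 0.57, and neither was called. At their low counts this does not show that the classes were alike. CD115 was higher by 0.12 ± 0.14 (exact permutation adjusted p = 0.0415), a call that leaving out 8 of the 10 mice in turn ended (0.0703 to 0.0831), all but old female 1 and young female 2.

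MHC-II was higher on Tmem176a-positive cells, at 42.8 ± 39.2 against 32.8 ± 28.3 counts (0.19 ± 0.10; exact permutation adjusted p = 0.00703, 10 of 10 mice). H2-Aa, which encodes a class II chain, was part of the choice of genes, so this test is not independent of that choice. On Tmem176b-positive cells the MHC-II difference ran from -0.085 (young female 2) to 0.258 (old female 3). It was also below 0 in old female 1 and young female 3. CD115, the receptor for macrophage colony-stimulating factor, was higher on Tmem176a-positive cells by 0.28 ± 0.16 (exact permutation adjusted p = 0.0117) and on Tmem176b-positive cells by 0.21 ± 0.12 (exact permutation adjusted p = 0.00703). Ly6C was lower on Tmem176b-positive cells by -0.20 ± 0.16 (exact permutation adjusted p = 0.00703, 10 of 10 mice) and differed by 0.015 with 2 UMIs required (exact permutation adjusted p = 0.867), while on Tmem176a-positive cells the difference was -0.03 ± 0.13 (exact permutation adjusted p = 0.536). Tmem176a-positive cells were also deeper, and the part of depth was not tested other than by thinning. When every barcode was given to its leading hashtag, doublets included, Ly6C and CD11b turned to 0.10 and 0.11 on Cd209a-positive cells and to 0.89 and 0.63 on Tmem176b-positive cells. After thinning, 2 of the 18 differences passed, Ly6C on Cd209a-positive (-0.74) and on Tmem176b-positive cells (-0.44; exact permutation adjusted p = 0.0352 each).

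**Figure D5:**
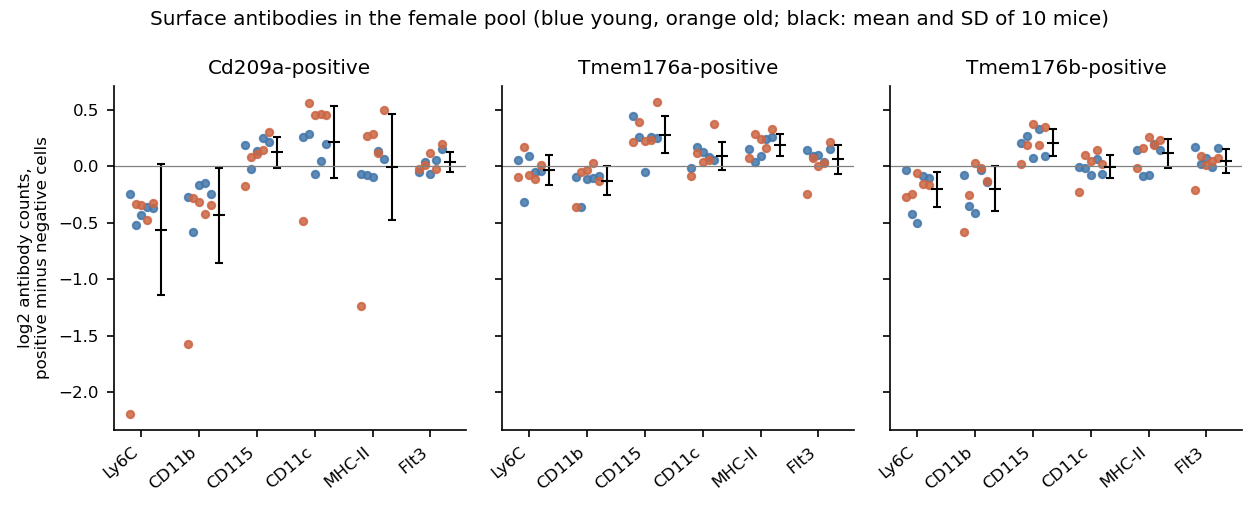
Difference in mean log2(antibody count + 1) between cells positive and negative for each member (vertical axis) for the 6 antibodies of the female pool; each point is 1 mouse (blue young, orange old), and black bars give the mean and SD of 10 mice. Ly6C and CD11b lie below 0 in all 10 mice for Cd209a, with old female 1 lowest (-2.19 and -1.57).

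Over the 10 mice of a pool, the 2 Tmem176 genes had the levels most alike by the mean correlation of the 2 pools. Pearson's r of log2 CPM averaged 0.88 between them (0.87 in males and 0.89 in females), the highest mean of 5650 genes for both. Within a pool other genes came closer to Tmem176a, Syngr2 in males (0.875 against 0.865) and Trappc6a in females (0.921 against 0.891). Erlec1 came closer to Tmem176b in males (0.867 against 0.865). These are descriptions over 10 mice of one library each, which share age groups and depth. For Cd209a the most alike were 4930523C07Rik (mean r 0.84), Znrf2 (0.83), Nptn, Trappc5 and Camkk2 (0.81 each), with 0.06 for Tmem176a and 0.26 for Tmem176b. For Tmem176a the next were Syngr2 (0.78), Snrpb2 (0.77), Trappc6a (0.77) and Rps19 (0.75), and for Tmem176b Zfpl1 (0.79). The r of Cd209a with H2-Aa over mice was -0.77 in females and 0.07 in males, and within mice 44.3% ± 17.0 of Cd209a-positive and 26.3% ± 19.4 of Cd209a-negative cells held H2-Aa in females.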

How the data were processed

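Single-cell RNA counts and antibody counts of sorted bone marrow classical monocytes were taken as deposited. The authors made the UMI counts with Cell Ranger 4.0.0 and STAR 2.5.1 on mm10 per the submitters' processing notes (the headers of the 2 matrices name other software versions, which differ between the pools), and the values are raw counts per gene and cell. Cells were assigned to mice by hashtag (HTODemux singlets in the female pool, the leading hashtag in the male pool, where 401 of 1227 barcodes were called doublets and kept), with over 200 genes and under 5% mitochondrial UMIs, and no further doublet caller was run. A cell with at least 1 UMI was called positive. Counts were summed per mouse, and per mouse and class of at least 5 cells, and tested over all genes with edgeR 4.0.16 (quasi-likelihood, TMM, Benjamini-Hochberg at 0.05). Clusters came from Seurat 5.3.0 and sctransform 0.4.2 (3000 features, 20 components, resolution 0.3) without the 3 genes. Fits were tested on simulated data, where 99.0% of genes changed 2-fold were recovered in the female age fit (10014 genes) and 63.8% in the male Cd209a fit (3509 genes).

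The members and gene lists were chosen with earlier results of these data known. Named genes were the called genes of largest fold with one sign in every mouse, members of the lists, and the 5 genes of most like pattern. Odds ratios were Mantel-Haenszel estimates over UMI quintiles. Alternatives were HTODemux singlets only, every barcode, at least 2 UMIs, thinning to 2000 UMIs, DESeq2 1.42.0, no low-count filter, the replicate block and each mouse left out. Python 3.11.15 and R 4.3.3 were used. Each sex is 1 pooled library, so p-values measure the spread between mice within it. Limits for counts of 0 (3 counts) cover counting error only.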

Additional observations from a re-analysis of the deposited data

Results flagged for a closer look

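Of 64 groups of 4 to 10 mice examined, 10 held a mouse far from the others of its group, where chance gives about 1 in 20. Old female 1 was the mouse in 7 of the 10. In it 42.2% of cells fell in the DCMo-like cluster (nearest old female 10.9%), and 45.8% of those cells held Tmem176b (nearest 83.2%). Its antibody differences between Cd209a-positive and negative cells were -2.19 for Ly6C (nearest -0.52), -1.57 for CD11b (nearest -0.58) and -1.23 for MHC-II (nearest -0.09), from 10 Cd209a-positive cells. Its Flt3 antibody differences were -0.24 for Tmem176a (nearest 0.01) and -0.21 for Tmem176b (nearest -0.00).

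The other 3 were in males. Young male 4 had 185 CPM of Cd209a (nearest young male 78.6). Old male 5 had 227 CPM of Tmem176a (nearest old male 99.2). Old male 2 had a log2 odds ratio of Tmem176a with Tmem176b of 7.04 (nearest 3.66).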

How the results depend on the processing

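In cells thinned to 2000 UMIs the genes called fell from 1640 to 297 in females and from 268 to 122 in males for Cd209a, from 1672 to 144 and from 127 to 61 for Cd209a-positive against Tmem176b-positive cells, from 2131 to 309 for Tmem176a and from 1387 to 808 for Tmem176b in females, and Tmem176b in males went from 56 to 201. DESeq2 called 1127 and 16 genes for Tmem176a in females and males (34 in males before), 697 and 28 for Tmem176b, 75 for Cd209a-positive against Tmem176b-positive cells of males and 23 for age in males. With no filter on low counts the male counts were 630, 323, 81, 98 and 93 in the order Cd209a, Cd209a against Tmem176b, Tmem176a, Tmem176b and age. HTODemux singlets gave 79 genes for Cd209a against Tmem176b in males, and leaving out 1 mouse gave 77 to 146, lowest without young male 2. The female age count was 345, and 194 to 522 with 1 mouse left out (214, 194, 216 and 215 without young females 1, 2, 4 and 5, 522 without old female 4). The male age count of 0 became 0 to 39 (39 without old male 1, 24 without old male 4). The mouse number as a replicate block gave 12 genes in males and 308 in females, with Cd209a at -1.10 and -1.07. Same-numbered mice did not deviate together (r between -0.04 and 0.07), so the numbers do not pair the mice.

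The old-minus-young share of Cd209a in females was -4.55 percentage points, and -2.77 with at least 2 UMIs required. That of Tmem176a in males was 16.3, and 8.34 after thinning. The male log2 odds ratio of Cd209a with Tmem176a was 0.60 among singlets, 1.02 after thinning and 1.05 with 2 UMIs, none past the threshold. That with Tmem176b was 3.401 with 2 UMIs, above 0 in 5 of 5 mice, which cannot give a two-sided p below 0.0625. Thinning reversed, for Tmem176b in females, Ctsg (-0.66), Elane (-0.80), Fn1 (0.033), Mpo (-0.57) and Ms4a3 (-0.62), for Tmem176a Elane (-0.33), Lyz2 (0.088), Mpo (-0.14) and Ms4a3 (-0.54), and Tmem176a between Cd209a-positive and Tmem176b-positive cells (-0.21). Of 6 antibodies, thinning left 1 called for Cd209a, 0 for Tmem176a and 1 for Tmem176b, against 3, 4 and 4 before, and 2 UMIs gave 5 for Cd209a. CD115 on Cd209a-positive cells turned to -0.000607 and CD11b on Tmem176a-positive cells to 0.038 after thinning. With every barcode given to its leading hashtag, doublets and cells without a clear hashtag included, Ly6C was 0.10 and CD11b 0.11 on Cd209a-positive cells, CD11b was 0.63 on Tmem176a-positive cells, and Ly6C was 0.89 and CD11b 0.63 on Tmem176b-positive cells. With 2 UMIs required, Ly6C was 0.015 and CD11b 0.017 on Tmem176b-positive cells. The cause of these changes was not tested. Of the other main results, 155 values under another setting and 358 with 1 mouse left out kept their side of the threshold or moved by less than the spread between mice. Of these, Tmem176b by age in females changed sign, its share difference (2.93) without old female 5 (-0.26) and its log2 fold change (-0.03) without young female 3 (0.0096) and old females 1 (0.07) and 2 (0.04).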

Other observations

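The DCMo-like cells of old female 1 differed from those of the other old females in which genes they held, by genes chosen after their values were seen among 4127 compared. Tmem176a was at 64.4 CPM against 365 in the summed counts of the other old females, Tmem176b at 151 against 661, and Apoe at 596 against 2439. Iigp1, an interferon-inducible GTPase, was at 126 against 2.40 CPM, Gm4951 at 91.2 against 4.32, and Chil3 at 2766 against 610. In DCMo-like cells of males, Iigp1 reached 46.9 CPM in old male 2 (7 UMIs) and 38.0 CPM in old male 5 (3 UMIs), and at most 4.53 CPM in every other mouse. These are values with no test.

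The female pool held a cluster of 118 cells led by Gh, Pomc and Prl, genes of pituitary hormones. Gh was detected in 95.8% of its cells and in 13.9 to 30.3% of the cells of the other female clusters. Without this cluster the share of Cd209a-positive cells was 5.46% in old and 10.0% in young females, an alternative chosen after seeing the data.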
